A study of Mus musculus with 20 samples.

Results

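Matrix metalloproteinases, the ADAMTS proteases with their ADAMTS-like relatives, and the tissue inhibitors of metalloproteinases were followed in adipocyte precursor cells from 2 fat depots before and after a short high-fat diet. The members are all genes of the count table whose symbol is Mmp, Adamts or Adamtsl followed by a number, with a or b allowed after an Mmp number, together with Timp1 to Timp4. That rule gave 51 of 33899 genes, made up of 23 Mmp, 19 Adamts, 5 Adamtsl and 4 Timp genes, and used no measured value. Of these, 40 had enough reads to be tested (14 Mmp, 17 Adamts, all 5 Adamtsl and all 4 Timp genes), and the other 11 are given by their reads.

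The mice were C57Bl6/J females between 8 and 11 weeks of age, with no allele or drug named for any group. Perigonadal fat, a visceral depot, is called VWAT, and inguinal fat, a subcutaneous depot, is called SWAT. Each depot was taken from mice on a standard diet (SD, day 0) and from mice given a high-fat diet of 60% lard (HFD) for 3 days. The 4 groups hold 5 libraries each, numbered 1 to 5, and every library was made from the pooled cells of 3 mice, so the spread between libraries is a spread between pools. The cells had been sorted as negative for the leukocyte antigen CD45 and the endothelial antigen CD31 and positive for CD29, CD34 and Sca1, with CD24 either present or absent, so each library mixes CD24-positive and CD24-negative precursors. In such bulk samples, fewer cells of a type and less RNA per cell cannot be told apart.

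As background, matrix metalloproteinases (MMPs) are zinc proteases that cut collagens, gelatin, proteoglycans and other matrix or cell-surface proteins, and most are secreted or membrane-bound as inactive proenzymes. ADAMTS proteases are secreted and include the proteoglycanases that cut versican and aggrecan and the propeptidases that trim procollagens, while ADAMTS-like proteins keep the thrombospondin repeats of that family but have no protease domain. Tissue inhibitors of metalloproteinases (TIMPs) bind the active site of these enzymes, and in adipose tissue the balance of the families shapes the collagen mesh in which precursors differentiate and fat cells enlarge.

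Reads assigned to genes numbered 14.4 to 47.5 M per library (M, 1000000 reads), with a median of 30.7 M. The 12 listed precursor genes were detected in all 20 libraries, some of them changing with diet as given below. Among them were Pdgfra (249.9 to 766 CPM) and Cd34 (1596 to 2390 CPM), where CPM is counts per M reads after TMM scaling of the library totals. In the library labelled VWAT SD 5 and the one labelled SWAT SD 5, depot genes went against the label. Wt1, a visceral mesoderm gene, was at 0.154 CPM in the library labelled VWAT SD 5 and at 80.3 CPM in the one labelled SWAT SD 5, against 82.6 to 227 CPM in the other VWAT libraries and 0.0768 to 3.90 CPM in the other SWAT libraries. Tbx15, a subcutaneous gene, stood at 47.7 and 0.358 CPM in those libraries, against at most 0.679 CPM in the other VWAT libraries and at least 38.2 CPM in the other SWAT libraries. All results are therefore given from all 20 libraries as labelled and, where they bear on a call, from the other 18. Fold changes also followed base composition. In the VWAT diet comparison Spearman's rho between a gene's GC content and its log2 fold change was -0.43 over the 40 members and -0.69 over 14045 genes, and in a fit of the 18 libraries with a GC correction it was -0.07 and -0.06. Those values are a description across genes, which share libraries.

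The members together took 1.58% ± 0.312 (SD, n = 5) of gene reads on SD and 1.44% ± 0.182 on HFD in VWAT. In SWAT they took 1.70% ± 0.191 on SD and 1.49% ± 0.0699 on HFD. A single inhibitor and a single protease gave a large share of these reads. Timp2 and Mmp2 supplied on average 57.9% of the members' reads in VWAT on SD and 40.4% on HFD, and 59.1% and 48.5% of them in SWAT. Per kilobase of exon, the scale on which genes can be compared, Timp2 averaged 1297 and Mmp2 1077 CPM per kb over the 20 libraries. Adamts4 (291 CPM per kb), Mmp14 (257), Mmp23 (240.3) and Mmp3 (229.8) came next, followed by Adamts2 (155), Adamts1 (152), Timp1 (134) and Timp3 (98.2). The lowest of the tested members were Adamts17 (0.276 CPM per kb), Mmp10 (0.174) and Adamts18 (0.17). The order at the top depended on the group, since Timp2 was above Mmp2 in VWAT SD (1602 against 1073 CPM per kb) and the pair stood at 1061 and 1074 in SWAT HFD. Exon lengths came from a newer annotation than the submitters' build, so levels per kilobase are approximate.

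**Figure D1:**
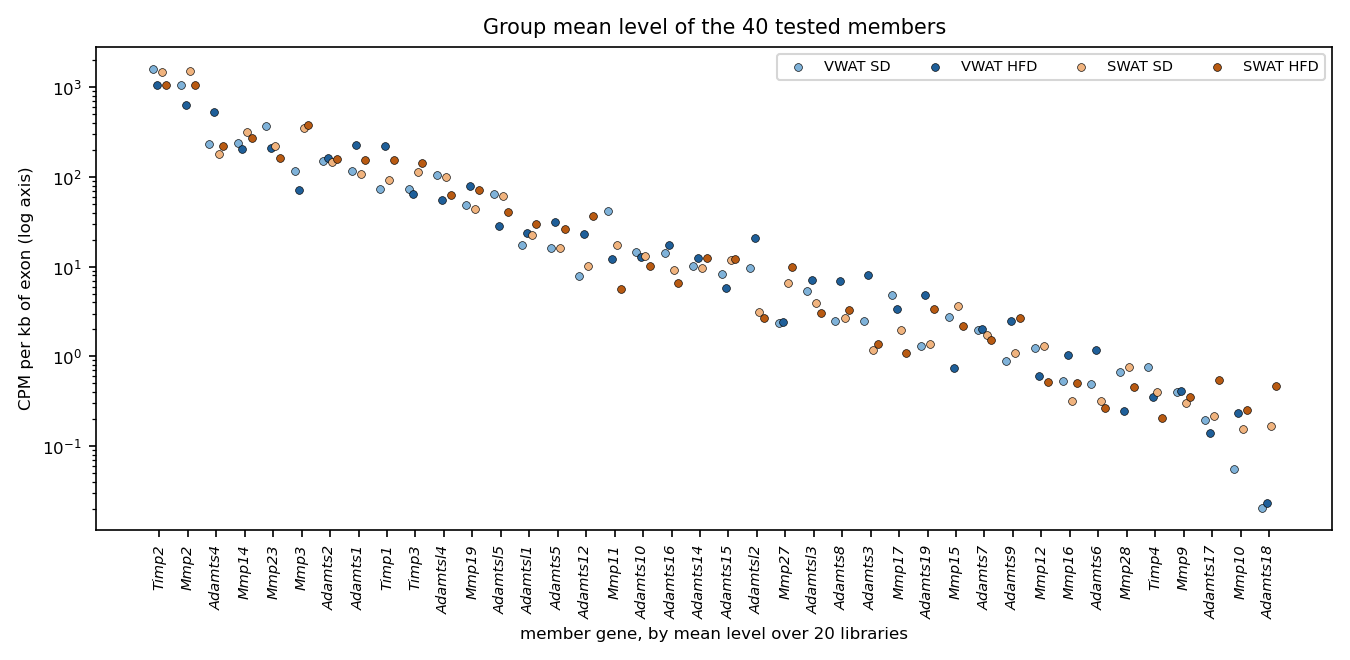
Group mean level of the 40 tested members in CPM per kb of exon (log axis), with 1 point for each of the 4 groups and members ordered from left to right by their mean over all 20 libraries. Timp2 averaged 1297 and Mmp2 1077 CPM per kb, whereas Adamts18 averaged 0.17 and Mmp10 0.174.

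The first question was how 3 days of the high-fat diet changed these genes in each depot. In VWAT, 12 of the 40 tested members rose and 8 fell with all 20 libraries (edgeR quasi-likelihood test, Benjamini-Hochberg adjusted p under 0.05 over all tested genes). That comparison called 19.7% of all 14242 tested genes higher and 26% lower, so the 20 called members, 50% of those tested, are close to the background of 45.7%. Among ADAMTS proteases 8 of 17 rose and 0 fell, whereas among MMPs 2 of 14 rose and 5 fell. The median log2 fold change was 0.04 over the members and -0.03 over all genes. Errors of log2 fold changes are standard errors throughout.

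Without the libraries labelled SD 5 the VWAT counts were 12 higher and 9 lower, beside 13.8% and 22.7% of all genes. With those libraries left out and GC content corrected they were 14 higher and 2 lower, beside 6.2% and 9.19% of all genes, and the members' median was 0.42 against 0.02 over all genes. The 10 members called in all 3 fits were Adamts1, Adamts3, Adamts4, Adamts8, Adamts9, Adamts12, Adamts19, Adamtsl1 and Timp1, which were higher after HFD, and Mmp11, which was lower. The share of all genes called in all 3 fits was not counted. It cannot exceed the 6.2% higher and 9.19% lower of the GC-corrected fit. Reads that HTSeq assigned to no annotated feature, called the unassigned share here, made up 3.18% to 9.80% of reads per library. The highest shares were in SD libraries, at 9.06%, 9.80% and 6.33% in VWAT SD 2 to 4 and 9.80% in SWAT SD 4. All HFD libraries lay between 3.18% and 4.60%, so this share was not independent of diet. With that share as a covariate 7 members were called with 20 libraries, beside 13.2% of all genes, and 1, Timp1, with 18, beside 0.125% of all genes (edgeR adjusted p = 0.0291 for Timp1).

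Timp1, a secreted inhibitor of most soluble MMPs, was at 99.5, 57.4, 63.9, 58.1 and 45.7 CPM in VWAT SD libraries 1 to 5 and at 208, 193, 159, 203 and 210.5 CPM in VWAT HFD. In SWAT its level was 118, 66.3, 75.1, 87.4 and 58.9 CPM on SD and 122, 118, 146, 127 and 166 CPM on HFD. The VWAT groups did not overlap, while the SWAT groups met at SD library 1, the highest of its group, which lay at the level of the lowest HFD library. In the 18 libraries with GC correction the VWAT log2 fold change was 1.77 ± 0.26 (edgeR adjusted p = 0.0015). The SWAT value was 0.74 ± 0.21 (edgeR adjusted p = 0.0579), which missed the threshold.

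Timp2, which both inhibits MMPs and, bound to membrane Mmp14, helps to activate proMmp2, had the reverse profile. Its level was 4482, 7854, 7379, 4966 and 5027 CPM in VWAT SD and 2794, 4808, 4267, 4134 and 3464 CPM in VWAT HFD. VWAT SD libraries 2 and 3 were the highest, and the groups overlapped in the range of 4482 to 4808 CPM. In SWAT the values were 5403, 4902, 5886, 5927 and 5225 CPM on SD and 3619, 4136, 3567, 4434 and 3922 CPM on HFD, and every HFD library lay below every SD library. In VWAT Timp2 fell by 0.61 ± 0.18 on the log2 scale (edgeR adjusted p = 0.0128). With GC correction in 18 libraries its value was -0.20 ± 0.15 (edgeR adjusted p = 0.386), and in SWAT it was -0.47 ± 0.18 (edgeR adjusted p = 0.0934), so neither passed.

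Timp3, the inhibitor that binds to the matrix and also blocks ADAMTS proteoglycanases and the membrane protease Adam17, showed no called diet change. It was at 431, 255, 319, 239.7 and 471 CPM in VWAT SD, 264, 297, 286, 335 and 329.9 CPM in VWAT HFD, 773, 732, 328, 522 and 331 CPM in SWAT SD and 888, 545, 549.7, 691 and 686 CPM in SWAT HFD. The diet groups overlapped in both depots. Its VWAT log2 fold change of -0.18 ± 0.24 (edgeR adjusted p = 0.551) and SWAT value of 0.32 ± 0.24 (0.335) did not pass.

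Timp4 was the least expressed inhibitor per kilobase (0.429 CPM per kb). It was at 2.57, 5.05, 5.93, 8.22 and 0.54 CPM in VWAT SD, 0.916, 1.69, 3.03, 2.1 and 2.55 CPM in VWAT HFD, 0.671, 1.77, 4.0, 3.76 and 1.7 CPM in SWAT SD and 0.95, 1.4, 0.878, 1.89 and 0.96 CPM in SWAT HFD. VWAT SD libraries 2 to 4 lay above all other libraries of the series, and the library labelled VWAT SD 5 was the lowest. Its VWAT log2 fold change was -1.11 ± 0.53 with 20 libraries (edgeR adjusted p = 0.0901). In the 18 libraries it fell by 1.40 ± 0.45 (edgeR adjusted p = 0.0229), and with GC correction it fell by 1.68 ± 0.48 (edgeR adjusted p = 0.0247). Exons of Timp4 and Syn2 overlap on opposite strands, so its counts are uncertain.

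Of the 6 tested proteoglycanases 5 rose in VWAT with 20 libraries (Adamts1, Adamts4, Adamts5, Adamts8 and Adamts9) and 0 fell, beside 19.7% and 26% of all genes. Adamts15 was at -0.51 ± 0.34 on the log2 scale (edgeR adjusted p = 0.224). Their median log2 fold change was 1.09, and it was also 1.09 in the GC-corrected fit of 18 libraries, where Adamts1, Adamts4, Adamts8 and Adamts9 were called. In that fit Adamts5 was at 0.33 ± 0.19 (edgeR adjusted p = 0.235) and Adamts15 at 0.61 ± 0.24 (0.0828). The 7 genes of this group, Adamts20 included, summed to 1926 ± 769 CPM (SD, n = 5) in VWAT SD and 4110 ± 620 CPM in VWAT HFD, beside 1645 ± 587 CPM in SWAT SD and 2210 ± 273 CPM in SWAT HFD.

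Adamts4, an aggrecanase, had the highest level of these genes per kilobase. It was at 1459, 1355, 1651, 791 and 335 CPM in VWAT SD and 1779.6, 2482, 2486, 3570.0 and 2547 CPM in VWAT HFD. The lowest HFD library lay above the highest SD library, and the lowest SD value was that of the library labelled VWAT SD 5. In SWAT the values were 746, 850.2, 439, 658 and 1592 CPM on SD and 850.0, 900.5, 1380.1, 1157 and 998 CPM on HFD, with the highest value of both groups in the library labelled SWAT SD 5. Adamts4 rose by 1.20 ± 0.35 in VWAT (edgeR adjusted p = 0.0109) and by 1.50 ± 0.32 with GC correction in 18 libraries (0.00756). Its SWAT value was 0.30 ± 0.34 with 20 libraries (edgeR adjusted p = 0.527). Without the library labelled SWAT SD 5 the SWAT SD mean was 674 CPM instead of 857, against 1057 CPM in SWAT HFD. Adamts4 was not called in SWAT in the 18 libraries, with or without GC correction.

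Adamts1, which cuts versican and aggrecan, was at 826, 543, 685, 483 and 296 CPM in VWAT SD and 1376, 1149, 903, 1111 and 1061 CPM in VWAT HFD. These groups did not overlap. In SWAT it was at 563, 739, 286, 417 and 622 CPM on SD and 1020.4, 717, 843, 661 and 584 CPM on HFD, with overlap. The VWAT log2 fold change was 0.98 ± 0.26 (edgeR adjusted p = 0.00689) and the SWAT one 0.54 ± 0.26 (0.14).

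Adamts9, another versican-cutting member, was at 13.1, 3.18, 8.7, 5.0 and 5.55 CPM in VWAT SD and 14.3, 11.2, 20.3, 27.5 and 25.1 CPM in VWAT HFD. The groups touched only through SD library 1, whose level exceeded the lowest HFD library. In SWAT Adamts9 was at 13.1, 7.56, 3.51, 14.3 and 5.17 CPM on SD and 19.0, 15.4, 24.1, 24.7 and 22.9 CPM on HFD, without overlap. It rose by 1.46 ± 0.38 in VWAT (edgeR adjusted p = 0.00659), and the SWAT value of 1.29 ± 0.37 missed the threshold (0.0613). Exons of 2 genes on the opposite strand, Gm15737 and A730049H05Rik, overlap Adamts9, which leaves its counts uncertain.

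Adamts8 was at 19.3, 10.8, 7.47, 3.49 and 3.89 CPM in VWAT SD and 23.5, 26.4, 21.1, 33.9 and 19.4 CPM in VWAT HFD, so the highest SD library lay just under the lowest HFD library. In SWAT it was at 12.5, 12.0, 7.02, 12.1 and 5.59 CPM on SD and 13.7, 11.3, 13.1, 12.5 and 9.64 CPM on HFD. The SWAT groups overlapped. Adamts8 rose by 1.46 ± 0.36 in VWAT (edgeR adjusted p = 0.00529) and was at 0.29 ± 0.35 in SWAT (0.548). Its exons overlap Gm29724 on the opposite strand. Adamts5, an aggrecanase, averaged 175 ± 109 CPM (SD, n = 5) in VWAT SD and 338 ± 88.8 CPM in VWAT HFD, a rise of 0.94 ± 0.31 (edgeR adjusted p = 0.0202) whose call was lost in 4 of 20 fits that left out 1 library each.

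The procollagen N-propeptidases Adamts2, Adamts3 and Adamts14 remove the amino-terminal extension of fibrillar procollagens. Adamts2, the most abundant of them per kilobase, was at 849.9, 1327, 1094, 1058 and 1098 CPM in VWAT SD, 1143, 1405, 1122, 1100.4 and 1195 CPM in VWAT HFD, 1038, 876, 1153, 1103 and 1127 CPM in SWAT SD and 1200.4, 1306, 1011, 1095 and 1190.4 CPM in SWAT HFD. All 4 groups overlapped, and the SDs were between 111 and 169 CPM. Its log2 fold change in VWAT was 0.14 ± 0.15 with all libraries (edgeR adjusted p = 0.453) and 0.66 ± 0.13 with GC correction in 18 libraries (0.00605).

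Adamts3, at 3.25 CPM per kb against 155 for Adamts2, rose from 13.0 ± 10.2 CPM (SD, n = 5) to 42.4 ± 10.1 CPM in VWAT without overlap, a log2 fold change of 1.70 ± 0.53 (edgeR adjusted p = 0.0154). Its SD range of 2.39 to 28.8 CPM included the library labelled VWAT SD 5 at the bottom. Adamts14 was at 0.30 ± 0.23 in VWAT (edgeR adjusted p = 0.284) and, with GC correction in 18 libraries, at 1.06 ± 0.25 (0.0104). All 3 propeptidases were thus called higher in VWAT in the GC-corrected fit of 18 libraries, beside 6.2% of all genes. With 20 libraries and no correction 1 of 3 was called higher, beside 19.7% of all genes.

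Adamts12, a protease that cuts cartilage oligomeric matrix protein (Comp), was the member with the smallest adjusted p for the diet in SWAT. Its level was 144, 42.6, 50.6, 30.9 and 65.1 CPM in VWAT SD and 146, 196, 176, 217 and 252 CPM in VWAT HFD. In SWAT it was 116, 121, 44.9, 97.9 and 57.2 CPM on SD and 273, 229, 367, 360.5 and 344 CPM on HFD. Neither depot's diet groups overlapped, though VWAT SD library 1 lay just under VWAT HFD library 1. Adamts12 rose by 1.56 ± 0.34 in VWAT (edgeR adjusted p = 0.00366) and by 1.85 ± 0.34 in SWAT (0.0334).

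Of the other ADAMTS proteases, Adamts19 rose in VWAT from 6.63 ± 2.88 CPM (SD, n = 5) to 24.6 ± 9.67 CPM, a log2 fold change of 1.88 ± 0.47 (edgeR adjusted p = 0.00554), with no overlap. Adamts7, which also cuts Comp, was at 0.06 ± 0.25 (edgeR adjusted p = 0.859), and Adamts10, linked in humans to fibrillin microfibril disorders, was at -0.18 ± 0.20 (0.448). With GC correction in 18 libraries Adamts7 was called higher at 0.76 ± 0.21 (edgeR adjusted p = 0.0196), as was Adamts10 at 0.62 ± 0.20 (0.041). Adamts7 shares exon sequence with Tbc1d2b on the opposite strand. Adamts6, Adamts16, Adamts17 and Adamts18 had VWAT log2 fold changes of 1.26 ± 0.58, 0.30 ± 0.43, -0.43 ± 0.56 and -0.01 ± 0.69, none of which passed with 20 libraries, with 18 or with GC correction in 18.

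Among the ADAMTS-like genes Adamtsl5, whose protein binds fibrillin, had the largest fall. It was at 77.4, 174, 139, 161 and 136 CPM in VWAT SD and 40.9, 63.8, 89.8, 58.4 and 47.2 CPM in VWAT HFD, and at 104, 119, 148, 165 and 117 CPM in SWAT SD and 66.8, 91.1, 87.0, 97.1 and 88.5 CPM in SWAT HFD. In VWAT the groups overlapped through SD library 1 alone, and in SWAT they did not overlap. Adamtsl5 fell by 1.20 ± 0.22 in VWAT (edgeR adjusted p = 0.00311), and with GC correction in 18 libraries its value was -0.40 ± 0.14 (0.0622). The SWAT value was -0.60 ± 0.22 (edgeR adjusted p = 0.0879).

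Adamtsl4, linked in humans to the fibrillin fibres of the lens, fell from 422 ± 136 CPM (SD, n = 5) to 226 ± 76.5 CPM in VWAT, a log2 fold change of -0.90 ± 0.26 (edgeR adjusted p = 0.010). With GC correction in 18 libraries it was at -0.13 ± 0.23 (0.746). Adamtsl1 rose modestly, from 147 ± 23.2 to 195 ± 17.5 CPM, by 0.41 ± 0.16 (edgeR adjusted p = 0.0464) and by 0.89 ± 0.22 with GC correction in 18 libraries (0.0139). Adamtsl3 was at 0.40 ± 0.33 (edgeR adjusted p = 0.326).

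**Figure D2:**
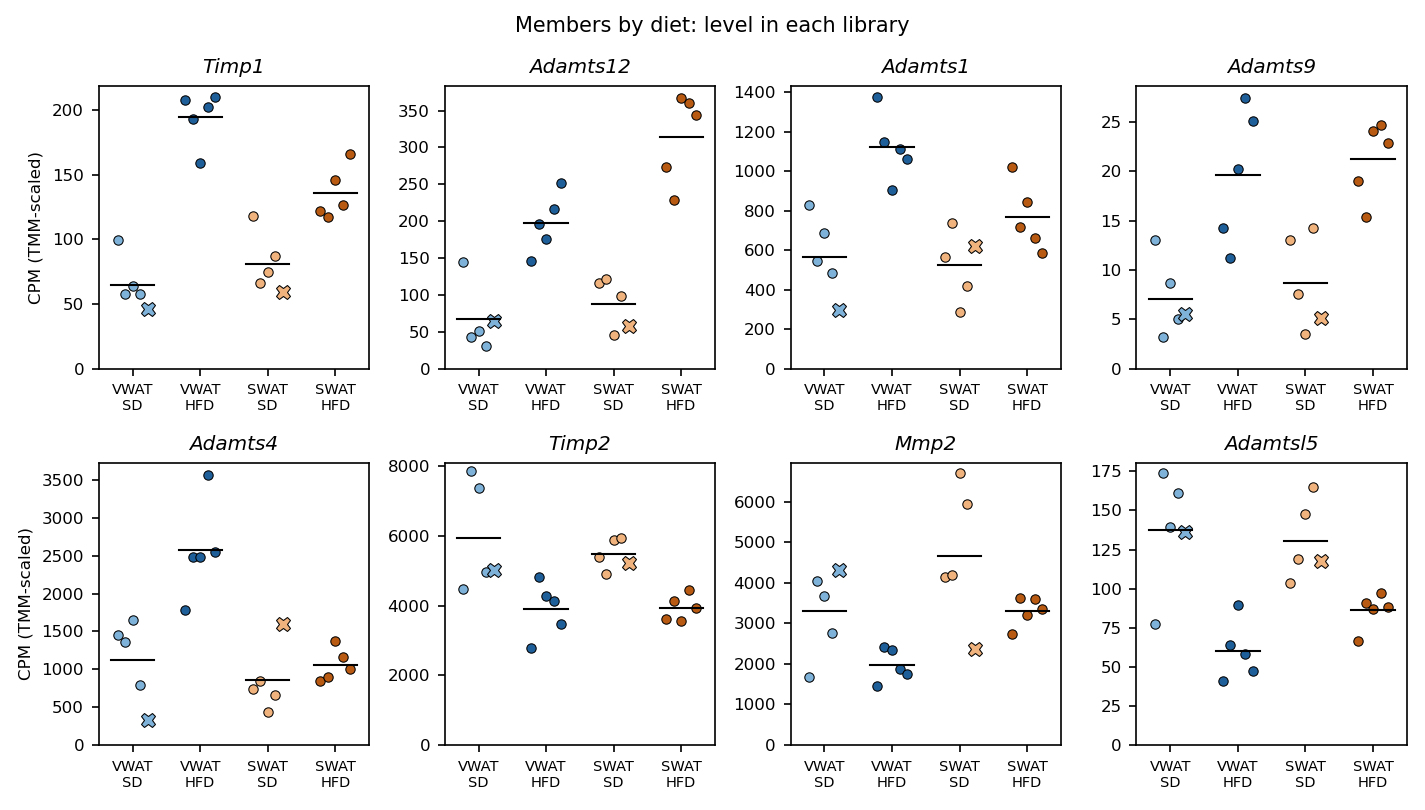
TMM-scaled CPM (linear axes from 0) of 8 members with named diet values, by depot and diet; each point is 1 library, crosses are the libraries labelled SD 5, and horizontal lines are means over all 5 libraries of a group. Timp1 and Adamts4 lay higher in every VWAT HFD library than in any VWAT SD library, and Adamts12 did so in both depots.

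The MMPs made up most of the decreases. Mmp2, a gelatinase made as a proenzyme, was at 1689, 4053, 3686, 2762 and 4329 CPM in VWAT SD and 1462, 2423, 2348, 1881 and 1746 CPM in VWAT HFD. In SWAT it was at 4156, 4189.7, 6709, 5944 and 2361 CPM on SD and 2729.6, 3622, 3219, 3599 and 3364 CPM on HFD. VWAT SD library 1 lay within the HFD range, and in SWAT the lowest value of either diet belonged to the library labelled SWAT SD 5. Mmp2 fell by 0.74 ± 0.26 in VWAT with 20 libraries (edgeR adjusted p = 0.0252), whereas with GC correction in 18 libraries its value was 0.02 ± 0.14 (0.944).

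Mmp14, the membrane collagenase that activates proMmp2, was at 571, 1196, 1133, 793 and 1251 CPM in VWAT SD, 618, 1142, 988, 799 and 788 CPM in VWAT HFD, 1454, 1274, 1568, 1272 and 1008 CPM in SWAT SD and 948, 1356, 1194, 1124 and 1041 CPM in SWAT HFD. Its diet groups overlapped in both depots, with VWAT SD library 1 the lowest of all. The log2 fold changes were -0.19 ± 0.21 in VWAT (edgeR adjusted p = 0.468) and -0.22 ± 0.21 in SWAT (0.458).

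Mmp11, the stromal protease stromelysin-3, was the MMP called lower in all 3 fits. It fell from 95.3 ± 64.7 CPM (SD, n = 5) to 27.7 ± 15.3 CPM in VWAT, by 1.78 ± 0.49 on the log2 scale (edgeR adjusted p = 0.00843), and by 1.26 ± 0.38 with GC correction in 18 libraries (0.0299). The groups overlapped, with SD at 34.1 to 192 CPM and HFD at 15.7 to 51.6 CPM. In SWAT Mmp11 was at -1.61 ± 0.49 (edgeR adjusted p = 0.0663).

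The membrane proteases Mmp15 and Mmp23 also fell in VWAT with 20 libraries, by 1.88 ± 0.56 (edgeR adjusted p = 0.0122) and 0.80 ± 0.27 (0.0211), as did secreted Mmp28, by 1.42 ± 0.44 (0.0153). With GC correction in 18 libraries these were at -0.38 ± 0.33, -0.10 ± 0.12 and -0.74 ± 0.37, and none passed. The Mmp15 call with 20 libraries was lost without the library labelled VWAT SD 5, the highest of its group at 31.7 CPM, though the fit that left out both SD 5 libraries called it (-1.34 ± 0.45, edgeR adjusted p = 0.0288). Mmp28 lost its call without VWAT SD library 4, and its exons overlap 1700020L24Rik on the opposite strand.

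Mmp19, a secreted MMP, rose from 168 ± 41.7 CPM (SD, n = 5) to 272 ± 55.2 CPM in VWAT, by 0.69 ± 0.22 (edgeR adjusted p = 0.0173), and was at 0.55 ± 0.22 without the SD 5 libraries (0.0506). Exons of Tmem198b and Gm47093 overlap it on the opposite strand. Mmp10, a stromelysin, was also called higher, by 1.81 ± 0.66 (edgeR adjusted p = 0.0318), but on 0 to 11 reads per VWAT SD library and 4 to 23 reads per VWAT HFD library. Mmp3, Mmp9, Mmp12, Mmp16, Mmp17 and Mmp27 were at -0.72 ± 0.45, 0.01 ± 0.47, -1.01 ± 0.81, 0.96 ± 0.51, -0.49 ± 0.39 and 0.02 ± 0.51 and did not pass with 20 libraries. Mmp27 was called higher in the 18 libraries, from 2.14 ± 0.798 CPM (SD, n = 4) to 4.22 ± 1.16 CPM (SD, n = 5), without overlap, at 0.97 ± 0.32 (edgeR adjusted p = 0.0252), and with GC correction added it was at 0.25 ± 0.29 (0.582).

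**Figure D3:**
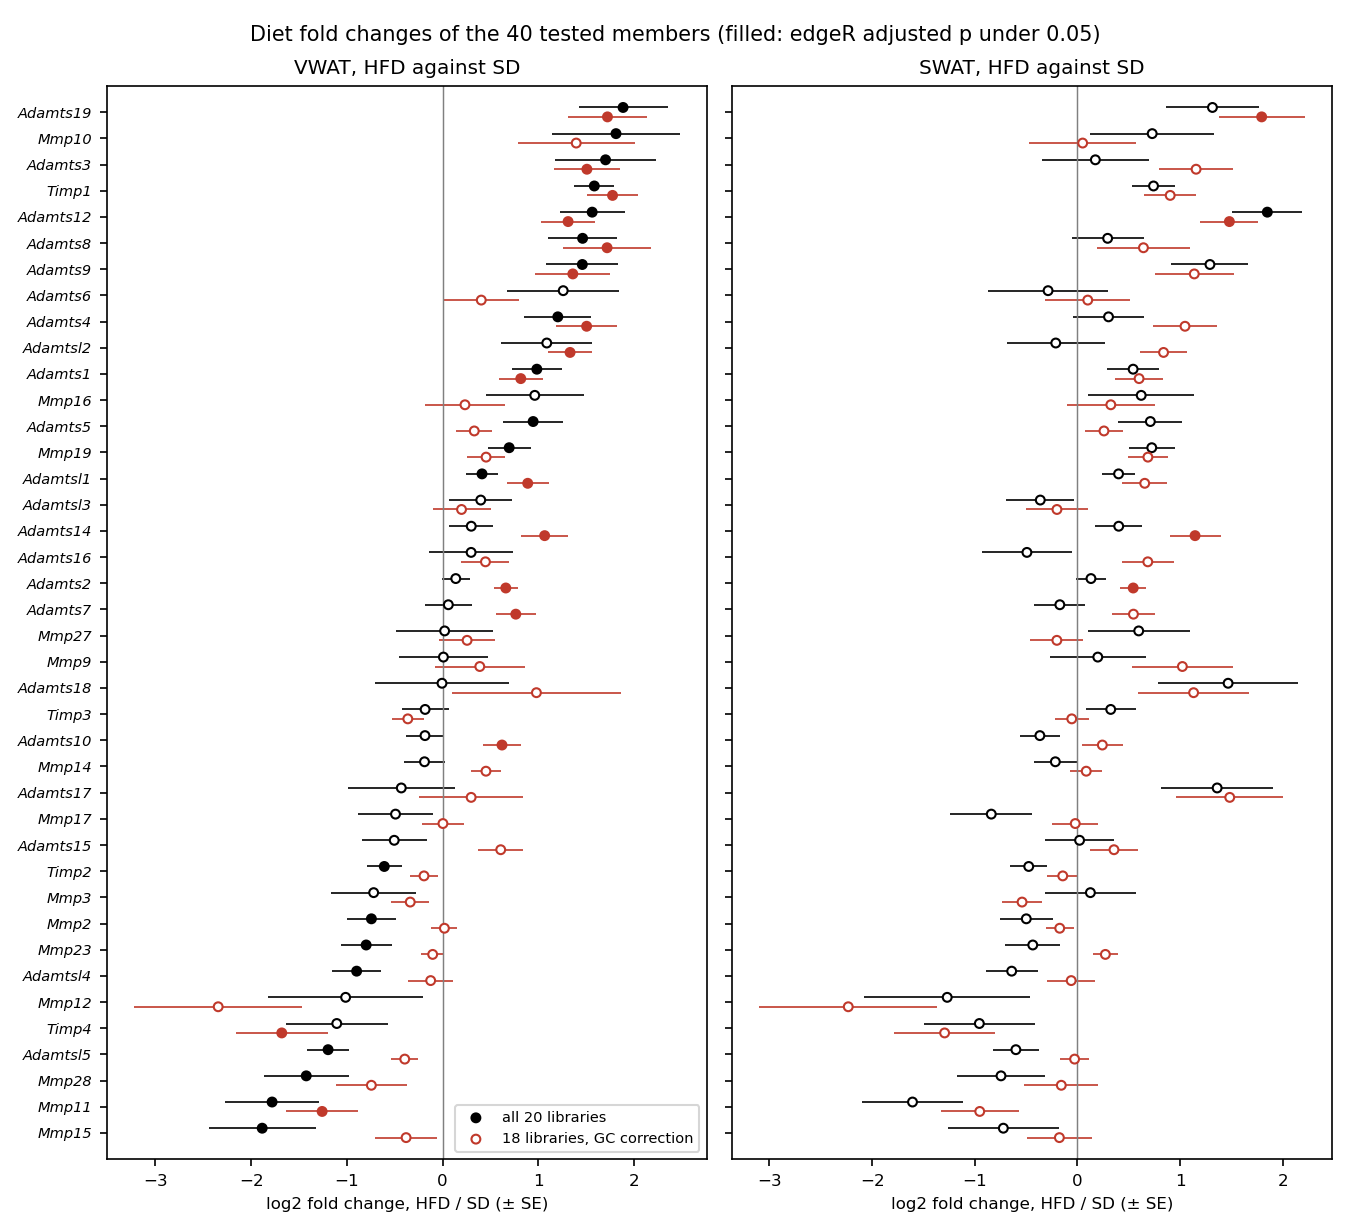
Log2 fold change, HFD against SD, of the 40 tested members in VWAT (left) and SWAT (right), from all 20 libraries (black) and from 18 libraries with GC correction (red); bars are standard errors and filled points have an edgeR adjusted p under 0.05. In VWAT, Timp1, Adamts12 and Adamts4 are filled in both fits, whereas Timp2, Mmp2 and Mmp23 are filled with all 20 libraries and open, closer to 0, in the other fit.

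In SWAT only Adamts12 was called with 20 libraries, beside 0.857% of all genes called higher, 0.702% lower and 1.56% in either direction, and 15 members had an unadjusted p under 0.05. Beside 0.355% of all genes called higher and 0.286% lower, Adamts12 was again the single call with the libraries labelled SD 5 left out (1.73 ± 0.37, edgeR adjusted p = 0.0383). With GC correction added there were 4, all higher, beside 1.13% of all genes higher and 0.515% lower: Adamts12 (1.48 ± 0.28), Adamts2 (0.54 ± 0.13), Adamts14 (1.14 ± 0.25) and Adamts19 (1.79 ± 0.42). The Adamts12 call was lost in 11 of the 20 fits that left out 1 library each. Every SWAT HFD library lay above every SWAT SD library for 3 members, Adamts9, Adamts12 and Adamts17, and below for 3, Adamtsl4, Adamtsl5 and Timp2, beside 5.62% and 4.97% of all tested genes. In VWAT 7 members lay wholly above (Adamts1, Adamts3, Adamts4, Adamts8, Adamts12, Adamts19 and Timp1) and 0 wholly below, beside 5.17% and 3.47%.

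Whether the diet effect differed between depots was tested with an interaction term. None of the 40 members passed (edgeR), beside 0% of all genes, 3 members had an unadjusted p under 0.05, and DESeq2 also called 0. In the 18 libraries, with and without GC correction, 0 members passed beside 0.00696% of all genes higher and 0% lower. The smallest p-values belonged to Timp1, with an excess in VWAT of 0.84 ± 0.29, Adamts8 with 1.17 ± 0.50 and Adamts17 with -1.79 ± 0.78 on the log2 scale, all at an edgeR adjusted p of 0.942. The difference in the number of calls between depots is thus not a tested difference in response.

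The second question was how the depots differ within a diet. These comparisons use the same SD and HFD libraries as the diet comparisons, so their values are not independent of those above. On SD, 0 of 40 members passed with the libraries as labelled, beside 0% of all genes (edgeR; 9 members had an unadjusted p under 0.05, and DESeq2 called 0). Without the libraries labelled SD 5, 12 members passed, 6 higher and 6 lower in VWAT, beside 3.46% and 4.99% of all genes, and with GC correction added 7 were higher and 8 lower, beside 5.52% and 6.83%. On HFD, where no library went against its depot markers, 11 members passed with all 20 libraries in the fit, 6 higher and 5 lower in VWAT, beside 2.82% and 3.63% of all genes. The share of members called was 27.5% against 6.45% of all genes. All 11 were also called in the fits of 18 libraries, where 8 were higher and 8 lower (beside 4.52% and 6.23% of all genes), or 9 and 9 with GC correction (6.62% and 9.05%).

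In the 18 libraries 11 members differed between depots on both diets. The share of all genes called on both diets was not counted. It cannot exceed the shares on SD, 3.46% higher and 4.99% lower. Adamts3, Adamts4, Adamts16, Adamtsl2 and Mmp17 were higher in VWAT, and Mmp2, Mmp3, Mmp27, Adamts15, Adamts18 and Timp3 were higher in SWAT. With GC correction added, Adamts4 was no longer called on SD, while the others were called on both diets. On HFD, where all 5 libraries of each depot enter, 8 members lay wholly higher in VWAT and 8 wholly lower, beside 6.66% and 8.56% of all genes. On SD as labelled 0 lay wholly higher and 0 wholly lower, beside 0.0772% of all genes each way.

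Mmp3, or stromelysin-1, which cuts many matrix proteins and can activate other proMMPs, separated the depots in all libraries but those labelled SD 5. It was at 712, 678, 832, 813 and 117 CPM in SWAT SD and 589, 717, 818, 683 and 632 CPM in SWAT HFD. In VWAT it was at 114, 100.4, 104, 146 and 585 CPM on SD and 105, 133, 142, 133 and 126 CPM on HFD. Apart from the libraries labelled SD 5, which each had the level of the other depot, the lowest SWAT library was 589 CPM and the highest VWAT library 146 CPM. On HFD Mmp3 was lower in VWAT by a log2 fold change of -2.43 ± 0.47 (edgeR adjusted p = 0.0062). On SD the value was -1.58 ± 0.45 as labelled (edgeR adjusted p = 0.57) and -2.71 ± 0.18 in the 18 libraries (4.01e-09). The diet did not move it past the threshold in either depot.

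Mmp27, a less studied secreted MMP, showed the same depot order at a lower level, with 4.22 ± 1.16 CPM (SD, n = 5) in VWAT HFD and 17.2 ± 4.39 CPM in SWAT HFD. The log2 fold change was -2.02 ± 0.52 on HFD (edgeR adjusted p = 0.0217), and on SD it was -1.45 ± 0.51 as labelled (0.586) and -2.66 ± 0.34 in 18 libraries (1.78e-05). Without SD 5 libraries the groups did not overlap on either diet. Mmp10, the other stromelysin of the region, was at -0.10 ± 0.58 on HFD (edgeR adjusted p = 0.947) and at -1.37 ± 0.66 on SD in 18 libraries (0.276).

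Mmp3, Mmp10 and Mmp27 sit in a run of 10 members on chromosome 9, in the order Mmp13, Mmp12, Mmp1b, Mmp3, Mmp1a, Mmp10, Mmp8, Mmp27, Mmp20 and Mmp7. The stretches just before the start sites of 4 of them are shown because these neighbours differ so widely in level, from 229.8 CPM per kb for Mmp3 to 5.29 for Mmp27, 0.174 for Mmp10 and 0.0289 for Mmp13. The sequences are RefSeq, GRCm38.p6, plus strand, the last 100 bases before each annotated start, with capitals for TGANTCA, the letters that the Fos and Jun dimer AP-1 binds, and for TATAAA.
Mmp3: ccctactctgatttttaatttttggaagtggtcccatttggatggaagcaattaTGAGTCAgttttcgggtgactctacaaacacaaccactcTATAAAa
Mmp10: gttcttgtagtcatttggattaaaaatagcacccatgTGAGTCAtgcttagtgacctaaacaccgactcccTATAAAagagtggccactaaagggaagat
Mmp13: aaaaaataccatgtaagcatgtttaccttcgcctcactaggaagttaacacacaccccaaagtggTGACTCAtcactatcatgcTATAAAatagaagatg
Mmp27: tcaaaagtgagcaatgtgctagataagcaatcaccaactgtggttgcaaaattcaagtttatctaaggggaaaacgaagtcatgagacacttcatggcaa
They lie at chr9:7445722-7445821 (Mmp3), chr9:7502242-7502341 (Mmp10), chr9:7272414-7272513 (Mmp13) and chr9:7571296-7571395 (Mmp27). TGAGTCA stands 46 bases before the start of Mmp3 and 63 bases before that of Mmp10, TGACTCA 35 bases before that of Mmp13, and the Mmp27 stretch holds neither motif.

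The 250 bases before each start were searched for TGANTCA, which reads the same on both strands, and for TATAAA on the gene's own strand only. The motifs cannot overlap each other. TGANTCA was found in 8 of the 10 genes of the chromosome 9 run, TATAAA in 7 and both in 7, against 0 and 3 of the 26 other members with a promoter window. Among all 32851 windows of that length 6.75% held TGANTCA and 7.59% held TATAAA. Mmp3 and Mmp13 thus carry both motifs at very different read levels, and Mmp27, which shares the depot difference of Mmp3, carries neither in these letters. A match is a run of letters and not a measured site. Of the AP-1 and dissociation genes, 9 of 16 were lower in VWAT HFD than in VWAT SD with 20 libraries, beside 26% of all genes, and 0 of 16 with GC correction in 18 libraries, beside 9.19%.

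Timp3 was called between depots on HFD with 20 libraries, with 18 and with GC correction in 18. It was higher in SWAT, by a VWAT-against-SWAT log2 fold change of -1.15 ± 0.25 on HFD (edgeR adjusted p = 0.00983), where the highest VWAT library was 335 CPM and the lowest SWAT library 545 CPM. On SD it was at -0.65 ± 0.25 as labelled (edgeR adjusted p = 0.629) and -0.92 ± 0.25 in 18 libraries (0.020), with overlap through SWAT SD library 3. Timp2 was at -0.02 ± 0.18 on HFD (edgeR adjusted p = 0.973), Timp1 at 0.52 ± 0.21 (0.14) and Timp4 at 0.76 ± 0.53 (0.472), and none of these passed in any of those 3 fits, though Timp1 was called higher in VWAT on HFD with the unassigned share as covariate in 18 libraries.

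**Figure D4:**
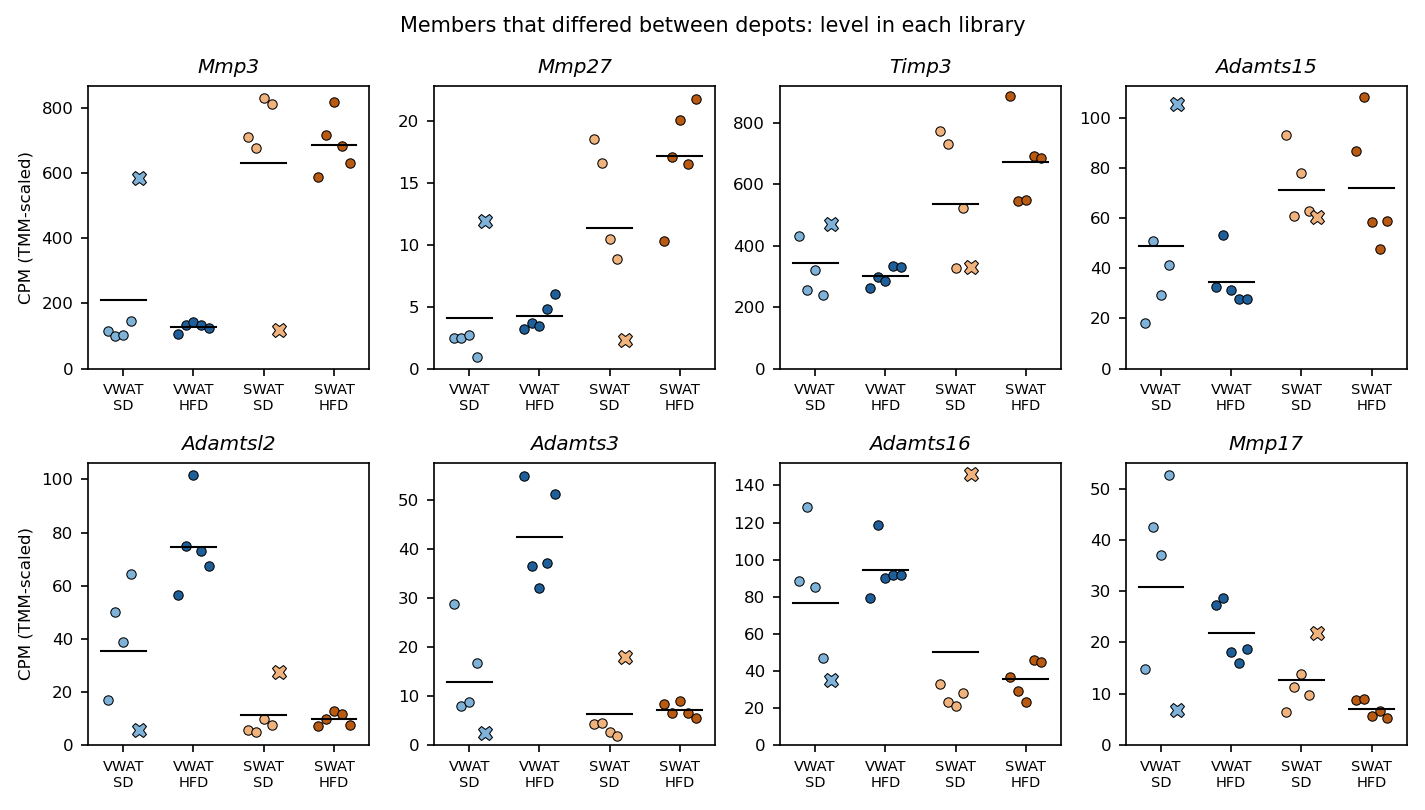
TMM-scaled CPM (linear axes from 0) of 8 members with named depot values, by depot and diet; each point is 1 library, crosses are the libraries labelled SD 5, and horizontal lines are means over all 5 libraries of a group. For Mmp3 and Adamtsl2 the crosses lie on the side of the other depot's libraries, and the HFD groups of the depots do not overlap.

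Adamtsl2, whose protein binds fibrillin and, in humans, is altered in a disorder with stiff skin and joints, had the largest difference in favour of VWAT. It was at 17.0, 50.3, 38.9, 64.4 and 5.82 CPM in VWAT SD and 56.3, 75.1, 102, 73.0 and 67.4 CPM in VWAT HFD, and at 5.81, 5.01, 9.76, 7.6 and 27.7 CPM in SWAT SD and 7.2, 9.82, 12.6, 11.5 and 7.45 CPM in SWAT HFD. Both libraries labelled SD 5 had the level of the other depot, and otherwise no VWAT library overlapped a SWAT library. The log2 fold change was 2.94 ± 0.51 on HFD (edgeR adjusted p = 0.00507), and on SD it was 1.65 ± 0.49 as labelled (0.57) and 2.59 ± 0.34 in 18 libraries (1.92e-05). In VWAT the diet change passed in 18 libraries (0.81 ± 0.30, edgeR adjusted p = 0.0407) and, as labelled, was 1.09 ± 0.48 (0.066).

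Adamts18 had the largest difference in favour of SWAT by ratio, on few reads. It was at 0.11, 0.0814, 0, 0 and 0.385 CPM in VWAT SD, 0.0248, 0.0664, 0.0453, 0.392 and 0.117 CPM in VWAT HFD, 2.01, 1.31, 0.421, 0.921 and 0.112 CPM in SWAT SD and 2.48, 1.54, 2.22, 2.72 and 4.26 CPM in SWAT HFD. That is 0 to 10 reads per VWAT SD library and 1 to 14 per VWAT HFD library, against 5 to 78 and 38 to 204 in SWAT. The HFD groups did not overlap, and on SD the overlap came from the libraries labelled SD 5. The log2 fold change was -4.28 ± 0.80 on HFD (edgeR adjusted p = 0.00516) and -4.14 ± 0.81 on SD in 18 libraries (0.0016).

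Adamts17, linked in humans to fibrillin disorders with Adamts10, was at 0.263, 0.0814, 2.39, 1.92 and 1.73 CPM in VWAT SD, 1.14, 1.29, 0.453, 0.644 and 1.11 CPM in VWAT HFD, 1.75, 1.35, 1.16, 2.3 and 0.559 CPM in SWAT SD and 2.55, 4.75, 4.21, 3.73 and 2.84 CPM in SWAT HFD. Every SWAT HFD library was above all libraries of the other groups. On HFD the VWAT-against-SWAT log2 fold change was -1.95 ± 0.55 (edgeR adjusted p = 0.0377), a call lost in 11 of the 20 fits that left out 1 library each. On SD in 18 libraries it was -0.54 ± 0.60 (edgeR adjusted p = 0.737).

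Adamts3 and Adamts4, which rose with diet in VWAT, were also higher in VWAT than in SWAT on HFD, by 2.56 ± 0.55 (edgeR adjusted p = 0.00959) and 1.28 ± 0.35 (0.0296). On SD in 18 libraries Adamts3 was at 2.21 ± 0.37 (2.80e-04) and Adamts4 at 0.96 ± 0.25 (0.0176). With GC correction added, Adamts3 was still called on SD and Adamts4 was not. Adamts16 averaged 94.3 ± 14.6 CPM (SD, n = 5) in VWAT HFD and 35.8 ± 9.89 CPM in SWAT HFD, without overlap, at 1.40 ± 0.44 with 20 libraries (edgeR adjusted p = 0.0629) and 1.40 ± 0.24 with 18 (3.43e-04). Adamts15 lay toward SWAT, with HFD groups that overlapped, at -1.06 ± 0.34 with 20 libraries (edgeR adjusted p = 0.0666) and -1.06 ± 0.27 with 18 (0.012).

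Adamts6 (2.15 ± 0.60, edgeR adjusted p = 0.0331) and Adamtsl3 (1.21 ± 0.33, 0.033) were also higher in VWAT on HFD. Leaving out 1 library ended the call of Adamts6 in 9, of Adamtsl3 in 8, and of Adamts4 and Mmp27 in 6 of 20 fits.

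Among the remaining MMPs, the glycolipid-anchored Mmp17 averaged 21.8 ± 5.74 CPM (SD, n = 5) in VWAT HFD and 7.08 ± 1.73 CPM in SWAT HFD, a log2 fold change of 1.62 ± 0.41 (edgeR adjusted p = 0.0192), lost without SWAT HFD library 5. In the 18 libraries on SD it was 1.82 ± 0.33 (6.80e-04). Mmp2 lay toward SWAT on HFD, at -0.75 ± 0.26 with 20 libraries (0.0883) and -0.75 ± 0.22 with 18 (edgeR adjusted p = 0.0291), and its HFD groups did not overlap. Mmp15 lay in the same direction, at -1.55 ± 0.55 (0.0981) and -1.55 ± 0.43 (0.0211). Mmp23 was higher in VWAT on SD in 18 libraries, at 0.93 ± 0.28 (edgeR adjusted p = 0.0372).

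**Figure D5:**
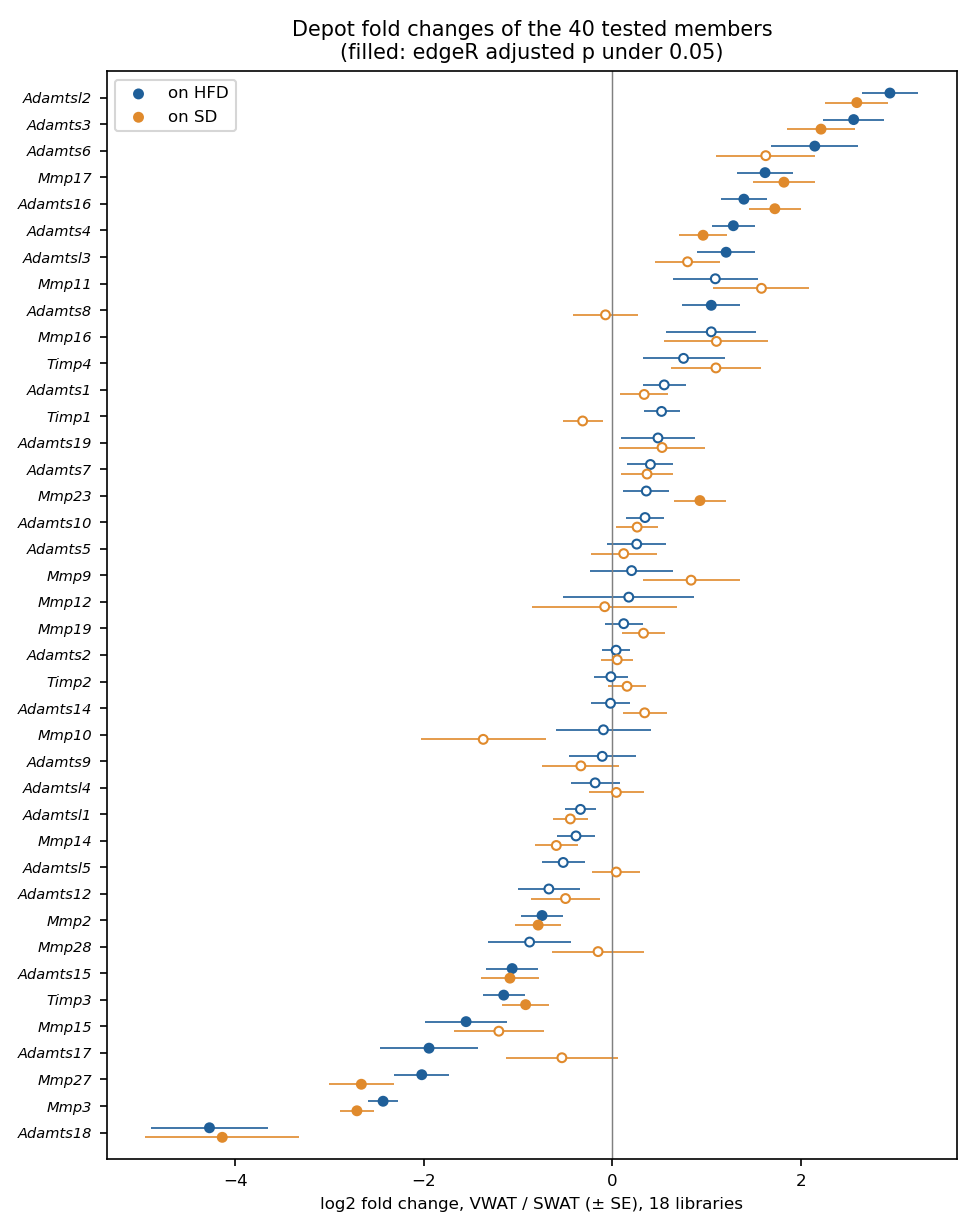
Log2 fold change, VWAT against SWAT, of the 40 tested members on HFD (blue) and SD (orange), from the 18 libraries without those labelled SD 5; bars are standard errors and filled points have an edgeR adjusted p under 0.05. On both diets Mmp3, Mmp27 and Adamts18 lie far to the left and Adamtsl2 and Adamts3 far to the right.

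Markers of other cells were also read by depot and, in VWAT, by diet. In the 18 libraries the 8 listed epithelial genes summed to 93.8 to 635 CPM in SWAT SD and 26.7 to 189 CPM in SWAT HFD, against 2.70 to 11.2 CPM in VWAT SD and 1.73 to 5.37 CPM in VWAT HFD. On both diets 8 of 8 were lower in VWAT (edgeR). In that fit 4.99% of all genes were lower in VWAT and 3.46% higher on SD, and 6.23% lower and 4.52% higher on HFD. Of the mesothelial markers, in the same fit and on both diets, Lrrn4, Msln, Upk1b, Upk3b and Wt1 were higher in VWAT and Krt8, Krt18 and Krt19 lower. Of the mural markers Cspg4 was higher in VWAT and Abcc9 and Kcnj8 lower on both diets, and Myh11 was higher on HFD. The Schwann gene Sox10 was lower in VWAT on both diets and the endothelial gene Kdr lower on HFD. The part of these markers in the depot differences of Mmp3, Mmp27, Mmp15, Adamts18 and Adamtsl2 was not tested.

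In the VWAT diet comparison with 20 libraries, 8 of 8 epithelial, 3 of 8 mesothelial (Krt8, Krt18 and Krt19), 2 of 7 endothelial (Vwf and Cldn5) and 2 of 10 tested leukocyte markers (C1qa and C1qb) were called lower on HFD and 0 of these lists higher. In the 18 libraries only Spint2 (epithelial), Krt19, Vwf, Cldn5, C1qa and C1qb of these lists were called, all lower, beside 22.7% of all genes. The 8 epithelial genes summed to at most 359 CPM in VWAT SD as labelled, and to at most 11.2 CPM without the library labelled VWAT SD 5. Their median log2 fold change was -4.78 with 20 libraries and 0.21 with 18. With GC correction added Ptprc was the single call of the 4 lists, also lower, beside 9.19% of all genes. The 7 endothelial genes summed to 278 to 411 CPM in VWAT SD and 174 to 294 CPM in VWAT HFD in the 18 libraries, and the 8 mesothelial genes to 105 to 236 CPM and 184 to 238 CPM. Of the 12 precursor genes Cd55, Col15a1 and Fabp4 were called higher and Dlk1, Pdgfrb and Pi16 lower with 20 libraries. Pi16 averaged 5942 CPM in VWAT SD and 2015 CPM in VWAT HFD. With GC correction in 18 libraries Col15a1 was called higher and Cd34 and Pi16 lower. Of the 8 mural genes Kcnj8 was called lower with 20 libraries. Of the 4 Schwann genes Sox10 was called lower and S100b higher, beside 26% and 19.7% of all genes. In the 18 libraries S100b, again higher, was the single call of these lists, and with GC correction added 0 were called. The part of any of these markers in the VWAT diet changes of the members was not tested.

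Mmp12, or macrophage elastase, and Mmp9, the leukocyte gelatinase, are known for expression in blood-derived cells. Mmp12 ranged over 0.68 to 8.23 CPM in VWAT SD, 0.791 to 6.7 CPM in VWAT HFD, 0.716 to 11.5 CPM in SWAT SD and 0.70 to 3.92 CPM in SWAT HFD. Mmp9 stayed between 0.291 and 2.16 CPM. The 13 leukocyte genes summed to 8.30 to 55.2 CPM in VWAT SD, 10.1 to 33.1 CPM in VWAT HFD, 12.5 to 83.0 CPM in SWAT SD and 10.6 to 24.8 CPM in SWAT HFD. Ptprc, which encodes CD45, was at 0.206 to 3.53 CPM, S100a9 was at 0 in all 20 libraries, S100a8 in 14 and Cd3e in 12. Their part in the Mmp12 values was not tested, and neither gene passed in any comparison with 20 libraries, with 18 or with GC correction in 18. Mmp12 exons also overlap Mmp1b on the opposite strand in the annotation used here.

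The 11 members below the expression filter had few reads over the 20 libraries together. Mmp25, a membrane MMP of leukocytes, had 108 reads, Adamts20 66, Mmp13 39, Mmp24 35, Mmp8 27 and Mmp21 18. Mmp7 had 5 reads, Adamts13 (the von Willebrand factor protease) 4, Mmp1a and Mmp1b 3 each and Mmp20 0. The secreted collagenases Mmp1a, Mmp1b, Mmp8 and Mmp13 averaged 0.0020, 0.00468, 0.0153 and 0.0289 CPM per kb, against 257 CPM per kb for the membrane collagenase Mmp14. Exons of Mmp24 and Mmp7 overlap BC029722 and AV064505 on the opposite strand.

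Genes that act with these families were read from 5 lists. Their VWAT diet counts stand beside 19.7% of all genes higher and 26% lower with 20 libraries, and 6.2% higher and 9.19% lower with GC correction in 18. Among 10 tested ADAM membrane proteases 4 rose and 2 fell in VWAT with 20 libraries, led by Adam12 (1.92 ± 0.28, edgeR adjusted p = 0.00138) and Adam9 (1.15 ± 0.24, 0.00348) upward and Adam33 (-2.19 ± 0.52, 0.00469) downward, and with GC correction in 18 libraries 3 of 11 rose and 0 fell. Of 9 tested plasminogen activation genes 3 rose and 0 fell. Among them were the inhibitor Serpinb2 (2.63 ± 0.69) and the activator Plat (0.52 ± 0.20), and 2 rose with GC correction in 18 libraries. Of 17 tested activators and surface regulators of metalloproteinases 6 rose and 4 fell, with Pcsk6, a proprotein convertase, at -1.16 ± 0.23 and Sdc4, a heparan sulfate proteoglycan, at 0.75 ± 0.15. With GC correction in 18 libraries 8 rose and 0 fell.

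Substrates of the ADAMTS proteases and fibrillin partners were read together as the last list, which also holds Bmp1, Pcolce, Papln and Ltbp1, so its counts are not counts of substrates alone. Of 17 tested, 5 rose and 3 fell in VWAT with 20 libraries, close to the share of 45.7% of all genes called either way, and 9 rose and 0 fell with GC correction in 18 libraries. Vcan, encoding versican, rose by 2.13 ± 0.49 (edgeR adjusted p = 0.00439) and was also called in the 18 libraries with and without GC correction. Comp was called lower with 20 libraries, at -1.82 ± 0.60 (edgeR adjusted p = 0.0192), on group means of 1.68 CPM in VWAT SD and 0.497 CPM in VWAT HFD. In the 18 libraries, with or without GC correction, Comp was not called. In SWAT the substrate Col3a1 (1.81 ± 0.34, edgeR adjusted p = 0.0334) and the regulator Cav1 (1.41 ± 0.31, 0.0472) rose, 1 gene of each list, and 0 ADAM and 0 plasminogen genes passed. That comparison called 0.857% of all genes higher and 0.702% lower.

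Between depots on HFD the thrombospondin genes went opposite ways, Thbs1 higher in VWAT at 2.09 ± 0.56 (edgeR adjusted p = 0.0267) and Thbs2 lower at -1.98 ± 0.41 (0.00837). Of the ADAM list 0 were higher and 2 lower in VWAT, Adam23 (-1.49 ± 0.26, edgeR adjusted p = 0.00516) and Adam33 (-2.30 ± 0.52, 0.0118). Of the plasminogen list 1 was higher, Thbd, the thrombin receptor thrombomodulin (1.42 ± 0.31, 0.0109). These counts stand beside 2.82% of all genes higher and 3.63% lower in VWAT.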

How the data were processed

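RNA-seq was read from 20 libraries of sorted adipocyte precursor cells, 5 per group, prepared from poly(A) RNA by a strand-marking method and sequenced as single reads, per the labels' protocols. The deposited values are raw read counts per gene, which the authors made with TopHat and HTSeq on mm9, per the submitters' processing notes. Neither the annotation nor the strand setting of the counting is given in the sources used here. The table had 33929 rows, of which 5 were HTSeq summary rows (21.8% to 37.0% of reads) and 25 had gene symbols turned into dates (0.0598% to 0.132%); both were left out, and no column of another sample was present. Genes were kept by edgeR's filterByExpr (minimum count 10), scaled by TMM and tested with edgeR 4.0.16 (R 4.3.3) in 1 robust quasi-likelihood model of the 4 group means, with Benjamini-Hochberg adjustment over all 14242 genes and a threshold of 0.05. The fit was tested on simulated data with known fold changes.

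Alternatives were 18 libraries without those labelled SD 5, a GC offset (natural spline with 5 degrees of freedom on log2 CPM, prior count 2), the unassigned share as a covariate, DESeq2 size factors, DESeq2 1.42.0, limma-voom (limma 3.58.1), no filter, a replicate block, and leaving out each library in turn. Whether replicate numbers pair the samples is not given in the sample labels, and the main fit did not pair them. Nothing states that pools were separate experiments beyond their labels, so p-values measure the spread between pools. Exon lengths and overlaps came from GENCODE on GRCm38 and promoters from RefSeq GRCm38.p6. GC content was known for 91.6% of genes.

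Members, roles and related lists were chosen with earlier results of these data known. Values per library are given for all 4 Timp genes, the 6 other members of highest mean CPM and, for each of the 5 comparisons, the 3 members of smallest p. Other genes named are members under the rule, the 3 of smallest p in a list, or genes chosen for a call after their values were seen. Of the plasminogen activation list, 1 gene is counted but its values are not reported here.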

Additional observations from a re-analysis of the deposited data

Results flagged for a closer look

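Over the 17 members with values per library, 68 groups of 5 were checked for a library that stood apart, and 5 were found; chance gives about 5% of groups. In 4 of them the library was labelled SD 5. Mmp3 was at 585 CPM in the library labelled VWAT SD 5, against 100.4 to 146 CPM in the other VWAT SD libraries. The library labelled SWAT SD 5 had 117 CPM of Mmp3, against 678 to 832 CPM in the others of its group, and 27.7 CPM of Adamtsl2, against 5.01 to 9.76 CPM. Adamts18 was at 0.385 CPM in the library labelled VWAT SD 5, against 0 to 0.11 CPM in the other VWAT SD libraries. VWAT HFD library 4 had 0.392 CPM of Adamts18, against 0.0248 to 0.117 CPM in the others. Adamts18 values in VWAT rest on 0 to 14 reads per library.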

How the results depend on the processing

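Percentages in parentheses are the share of all genes called in either direction by the same fit. They are not given for DESeq2, limma-voom, the block and the fits that left out 1 library. Those counts alone do not show whether the members or the whole table moved. For the VWAT diet comparison (20 called) the count was 7 with the unassigned share as covariate (13.2%) and 1 with that covariate in 18 libraries (0.125%). It was 14 to 22 when 1 library was left out. For the SWAT diet comparison (1 called) it was 2 with GC correction (0.737%) and 4 with GC correction in 18 libraries (1.64%). With the covariate in 20 or 18 libraries it was 0 (0% in both). It was 6 with DESeq2, 4 with limma-voom and 0 to 9 when 1 library was left out. The interaction gave 0 in every fit that left out 1 library. For the depots on SD (0 called) the count was 12 in 18 libraries (8.45%), 15 with GC correction added (12.4%) and 15 with the covariate added (9.18%). It was 0 to 6 when 1 library was left out. On HFD (11 called) it was 18 in 18 libraries with GC correction (15.7%), 18 with the covariate in 18 libraries (12.8%) and 12 with the covariate in 20 (7.32%). It was 5 to 15 when 1 library was left out. With the replicate number as a block the SWAT diet count was 8, 7 with GC correction and 7 in 18 libraries, while the depot counts in 18 libraries were 16 on SD and 18 on HFD. With the block all 20 VWAT diet calls passed. Of the 11 calls between depots on HFD 9 passed and Adamts4 and Adamts17 did not, while Adamts8 did. Whether equal numbers pair the samples is not given in the sample labels. Correlations of deviations between same-numbered libraries ranged from -0.657 (VWAT SD 5 with SWAT SD 5) to 0.594 (VWAT SD 1 with SWAT SD 1). Between VWAT HFD and SWAT HFD they were 0.092 to 0.547. These values do not settle whether samples were paired. The cause of the changes in the counts was not tested. Among the 20 VWAT diet calls and the values of Mmp27, Adamtsl2 and Timp4, 3 signs changed. Mmp2 was at 0.018 with GC correction in 18 libraries, Mmp23 at 0.049 with GC correction and 0.057 with GC correction and the block, and Mmp27 (0.02 with 20 libraries) at -0.90, -0.21 and -0.61 with GC correction, the covariate, and GC correction with the block, and at -0.22 to 0.97 when 1 library was left out. Leaving out 1 library ended the VWAT diet call of Adamtsl1 in 7, of Mmp2, Mmp10 and Mmp23 in 6 and of Timp2 in 1 of 20 fits, the last without VWAT SD library 2. Depth limits the 11 untested members, for which a difference was not detectable, and the calls of Adamts18 and Mmp10 rest on few reads.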
